A study of Mus musculus with 8 samples.

Results

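Amino acid transporter genes were described in RNA from mouse kidney whose cell type label is IMCD, the inner medullary collecting duct. The genes were taken by name from the solute carrier families Slc1, Slc3, Slc6, Slc7, Slc36, Slc38 and Slc43, leaving out Slc6a6, Slc6a12, Slc38a2 and Slc7a11, which match the same names. This gave 57 of the 77981 genes in the table, and 38 of them had a mean of at least 1 TPM (an abundance scaled by transcript length and to the same total in every library) over all libraries. The 4 AVP-flox libraries come from mice whose vasopressin gene, Avp, carries loxP sites, and the 4 AVP-flox;Cre libraries from mice that carry a Cre recombinase in addition. All 8 libraries carry the treatment label Tamoxifen, a drug that activates some inducible forms of Cre. The labels give neither the age of the mice nor the promoter that drives Cre, and no library carries Cre without the floxed gene. Nor is it stated that each replicate is an animal of its own, so the p-values describe the spread between these libraries, part of which may be technical. Libraries of male and of female pattern, read from Xist and Y-linked transcripts, occur in both groups, so neither group comes from a single animal. Avp itself, which is mainly made in the hypothalamus, did not exceed 0.24 TPM in any AVP-flox library or 0.27 TPM in any AVP-flox;Cre library, too low in this tissue to check the genotype labels.

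Cells take up and exchange amino acids through several carrier families. Slc7 light chains need a heavy chain of the Slc3 family to reach the cell surface, and most of them exchange amino acids rather than accumulate them. Slc1, Slc6 and Slc38 carriers are mostly driven by the sodium gradient, Slc36 carriers by protons, and Slc43 carriers are facilitators. In the kidney the bulk of filtered amino acids is recovered in the proximal tubule by brush border carriers such as Slc6a19 and the pair of Slc3a1 and Slc7a9, while carriers of the collecting duct mainly serve the needs of its own cells. The names hold for most members, but not every member carries amino acids. Slc6a8 carries creatine, Slc6a13 carries GABA and related compounds, Slc43a3 carries purine nucleobases, and a transport activity of Slc7a4 is not established.

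The share of members called was close to that of all genes, and the set as a whole was not tested. Of the 38 members tested, 5 were higher, 4 were lower and 29 did not pass the test in AVP-flox;Cre (limma on log2(TPM + 1), Benjamini-Hochberg adjusted p below 0.05 over 19043 genes). That is 23.7% of members called, against 27.3% of all genes tested. By direction, 13.2% of members were higher against a background of 13.1%, and 10.5% were lower against 14.2%. The groups did not overlap for 7 members (18.4%), against 29.5% of all genes. The median log2 fold change, AVP-flox;Cre minus AVP-flox, was 0.04 over the members and -0.01 over all genes tested. Without regard to sign the medians were 0.31 and 0.29. The tested members had a lower median level (7.65 against 11.1 TPM) and a larger median SE (0.18 against 0.16), which limits the comparison of called shares. Summed over the 38 members, the libraries held 772, 739, 736 and 737 TPM in AVP-flox 1 to 4 and 675, 720, 739 and 749 TPM in AVP-flox;Cre 1 to 4, so the groups overlapped.

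A few members made up most of this sum. Slc38a10, a member of the Slc38 family whose transport role is less well defined, had a mean of 134 TPM over the 8 libraries and 18.3% of the sum. Slc3a2, the 4F2 heavy chain, had 127 TPM and 17.3%, and together with Slc43a2 (65.9 TPM) and Slc7a6 (58.2 TPM) these genes held 52.5%. At the other end, 22 of the 38 members had a mean under 10 TPM. Slc38a3 (1.04 TPM) and Slc43a1 (1.14 TPM) stood just above the limit of 1 TPM, and Slc36a2 (0.96 TPM) and Slc7a3 (0.92 TPM) just below it.

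**Figure D1:**
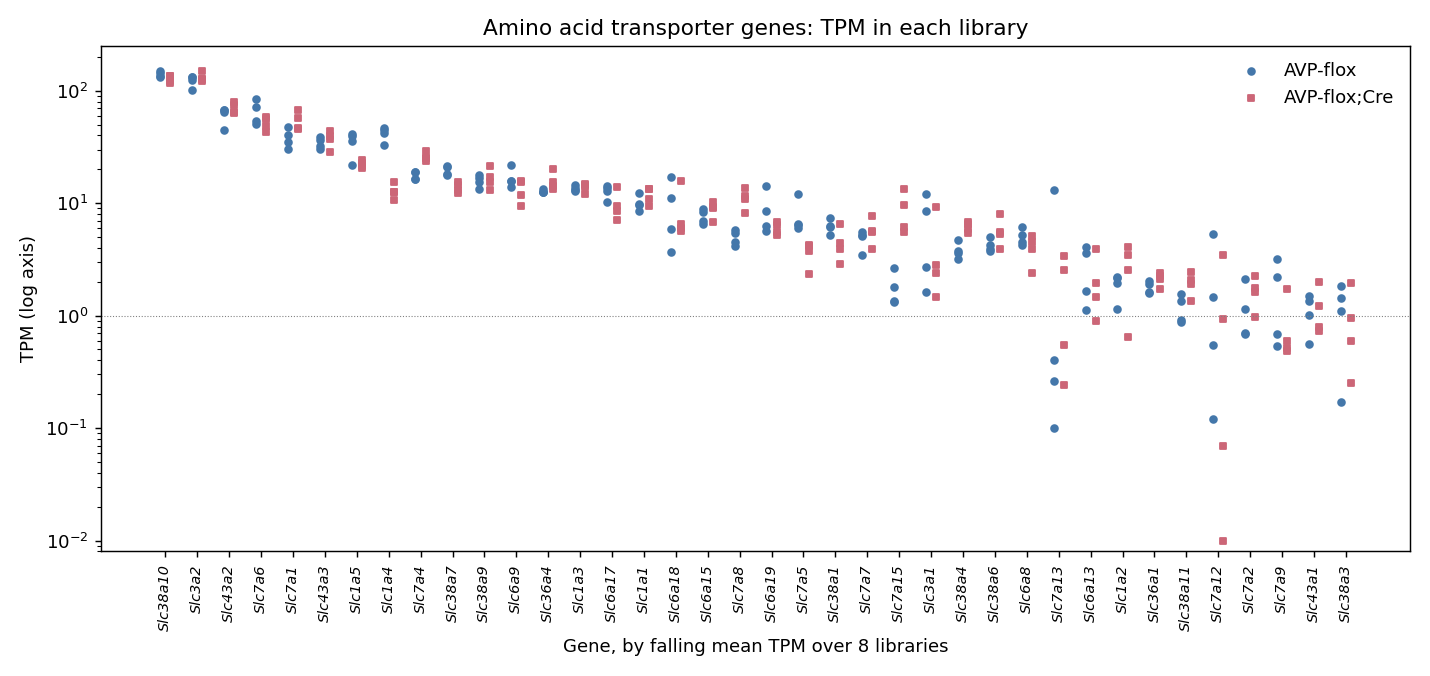
TPM on a log axis of the 38 members with a mean of at least 1 TPM, ordered by their mean over 8 libraries, with 1 point per library (circles AVP-flox, squares AVP-flox;Cre) and a dotted line at 1 TPM. Slc38a10 and Slc3a2 lie above 100 TPM in every library, Slc1a4 shows separate groups, and Slc7a12 and Slc7a13 spread most among libraries of the same group.

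Markers of the labelled cell type were present, beside those of other cells. The 8 principal cell markers, Aqp2 among them, summed to 19683 to 23711 TPM in AVP-flox and 10476 to 12514 TPM in AVP-flox;Cre. Most of this sum was Aqp2, with means of 15995 TPM in AVP-flox and 6304.5 TPM in AVP-flox;Cre. Of the 8 markers, 1 was higher, 3 were lower and 4 did not pass. Avpr2 (means of 482 and 506 TPM) and Gata3 (169 and 171 TPM) were among those that did not pass. The shares of all genes tested, 13.1% higher and 14.2% lower, are the background for all marker lists. Endothelial markers summed to 2318 to 2385 and 1964 to 2050 TPM (4 of 8 tested higher, 2 lower). Emcn, 1 of the 2 lower genes, had means of 705 and 362 TPM. Fibroblast and smooth muscle markers summed to 137 to 189 and 282 to 356 TPM (4 of 8 tested higher, 0 lower), and markers of the papillary surface and urothelium to 1786 to 2812 and 5007 to 5757 TPM (6 of 7 tested higher, 0 lower). Psca made up most of the papillary sum, with means of 2059 and 4836 TPM. Intercalated cell markers summed to 229 to 352 and 347 to 461 TPM (4 of 7 tested higher, 0 lower), and leukocyte markers to 217 to 493 and 347 to 576 TPM (2 of 10 tested higher, 0 lower). Thick limb and distal tubule markers summed to 2250, 372, 1904 and 1943 TPM in AVP-flox 1 to 4. In AVP-flox;Cre 1 to 4 they summed to 782, 887, 587 and 867 TPM (1 of 6 tested higher, 0 lower). No listed marker was at 0 in all libraries, and the part of these cells in the results on single transporters was not tested. In bulk samples fewer cells of a type and less RNA per cell cannot be told apart.

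Of the neutral amino acid exchangers of the Slc1 family, Slc1a4 fell clearly, while Slc1a5 was lower by a fragile call. Slc1a4 (ENSMUSG00000020142), which encodes ASCT1, an exchanger of serine, alanine, cysteine and threonine, had the largest fall among the members. It stood at 41.7, 46.4, 32.9 and 44.8 TPM in AVP-flox 1 to 4 and at 12.6, 10.7, 15.5 and 12.5 TPM in AVP-flox;Cre 1 to 4. Every AVP-flox;Cre library was below every AVP-flox library. The means were 41.4 ± 6.0 and 12.8 ± 2.0 TPM (SD, n = 4 per group), a 3.23-fold lower level, with a log2 fold change of -1.62 (SE 0.14, limma adjusted p = 5.66e-05). The call held in each of 23 alternative analyses, with log2 fold changes from -1.77 to -1.38.

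The promoter of Slc1a4 is shown because Slc1a4 fell most and its promoter holds the amino acid response element core, TTNCATCA, the composite site bound by ATF4 with C/EBP factors in amino acid shortage. The stretch below is from RefSeq, build GRCm38.p6, chr11:20332694-20332963 on the minus strand, from 250 bases before the annotated start to 20 after it, with the match in capitals.
Slc1a4: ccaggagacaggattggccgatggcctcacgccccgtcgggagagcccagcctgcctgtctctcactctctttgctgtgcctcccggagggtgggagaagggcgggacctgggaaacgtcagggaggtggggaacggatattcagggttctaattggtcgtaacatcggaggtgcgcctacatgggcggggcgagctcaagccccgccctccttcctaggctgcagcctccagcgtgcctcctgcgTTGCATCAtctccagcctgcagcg
The match begins 4 bases before the annotated start. Both strands were searched in windows from 250 bases before to 50 after each start. Of 26 tested members with an entry in the promoter table, 2 had a match in at least 1 promoter (7.69%), against 4.51% of 27025 genes in that table. The other was Slc7a7, which did not pass the test. Only 2 of the 4 members that fell have an entry there. A match is a run of letters and not a measured site.

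Slc1a5 (ENSMUSG00000001918), which encodes the glutamine exchanger ASCT2, was at 41.1, 21.7, 39.7 and 35.6 TPM in AVP-flox 1 to 4 and at 21.5, 20.7, 24.1 and 23.0 TPM in AVP-flox;Cre 1 to 4. AVP-flox 2 lay among the AVP-flox;Cre libraries, so the groups overlapped. It was also the AVP-flox library with few thick limb and distal tubule markers (372 TPM, against 1904 to 2250 TPM in the others). The part of these cells in the level of Slc1a5 was not tested. The log2 fold change was -0.57 (SE 0.18, limma adjusted p = 0.0390). This call was fragile. Leaving out AVP-flox 1 (adjusted p = 0.107), 3 (0.111) or 4 (0.0936) ended it, as did leaving out AVP-flox;Cre 1 (0.0874), 2 (0.0832), 3 (0.0682) or 4 (0.0813). Only the omission of AVP-flox 2, the overlapping library, kept the call among single libraries. The log2 fold change of Slc1a5 was then -0.77 (limma adjusted p = 0.00103). Without AVP-flox 1 and 3 the log2 fold change of Slc1a5 was -0.31. As a pair, the 2 exchangers summed to 82.8, 68.1, 72.5 and 80.4 TPM in AVP-flox 1 to 4 and to 34.1, 31.4, 39.6 and 35.5 TPM in AVP-flox;Cre 1 to 4. Slc1a4 had the larger part in the fall of this sum (means of 41.4 and 12.8 TPM, against 34.5 and 22.3 TPM for Slc1a5). Slc1a4 was 0.83 to 2.13 times the level of Slc1a5 in AVP-flox and 0.52 to 0.64 times in AVP-flox;Cre. The glutamate and aspartate carriers of the same family did not pass the test. Slc1a3 (GLAST) had a log2 fold change of 0.04 (95% interval -0.19 to 0.26), Slc1a1 (EAAC1) of 0.20 (-0.13 to 0.53) and Slc1a2 (GLT-1) of 0.26 (-0.50 to 1.03).

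**Figure D2:**
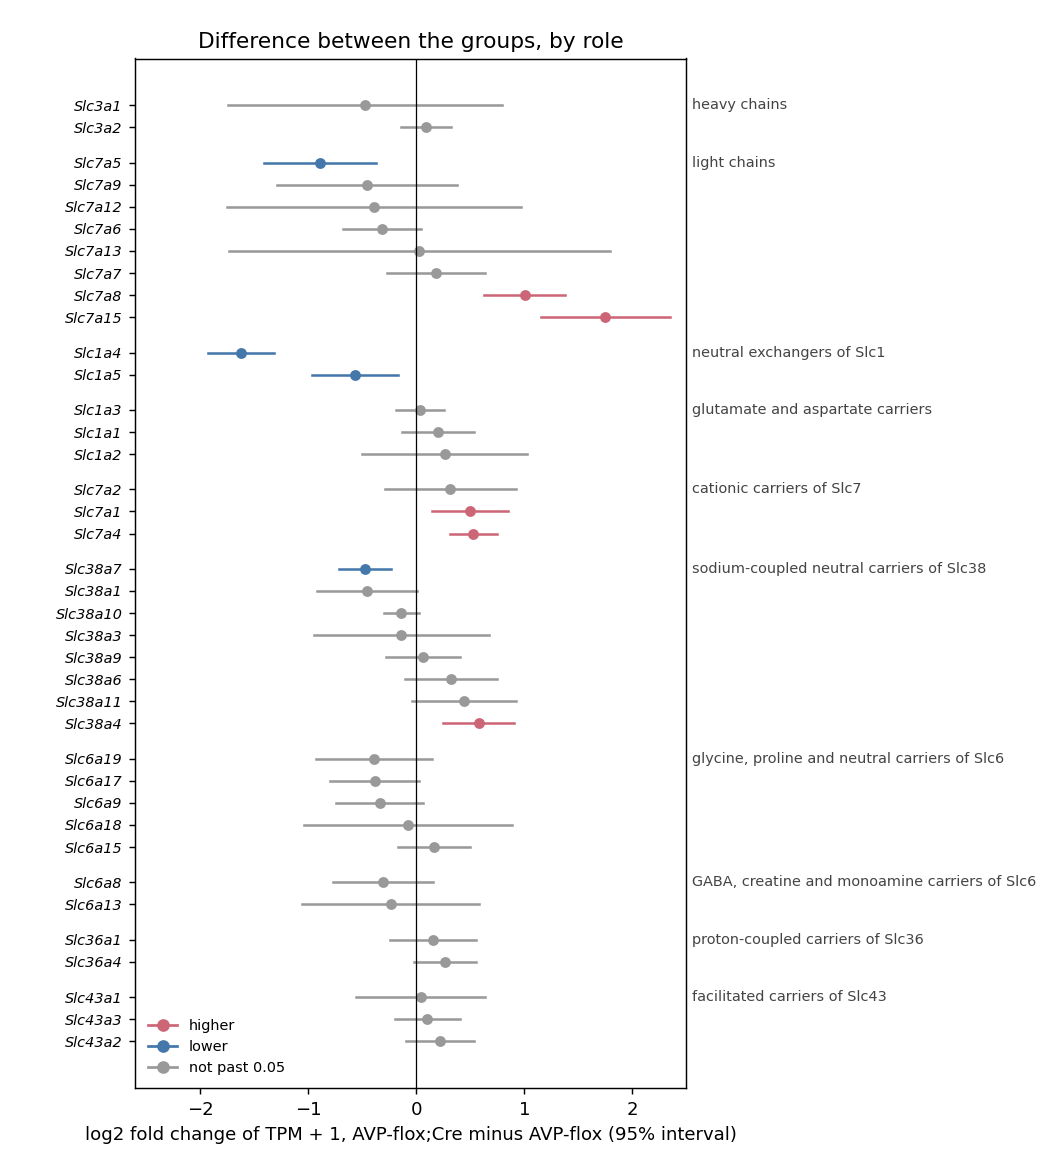
Log2 fold change of TPM + 1, AVP-flox;Cre minus AVP-flox, with its 95% interval for the 38 tested members grouped by role, coloured by whether the gene was higher, lower or not past the threshold of 0.05. Slc1a4 (-1.62) and Slc7a15 (1.75) lie farthest from 0, and the intervals of Slc7a12, Slc7a13 and Slc3a1 are the widest of the plot.

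The heavy chain Slc3a2 did not pass the test. Among the light chains Slc7a5, Slc7a6, Slc7a7 and Slc7a8, which pair with it, 1 fell and another rose. Slc3a2 (ENSMUSG00000010095) was at 125, 133, 101 and 133 TPM in AVP-flox 1 to 4 and at 121, 149, 127 and 126 TPM in AVP-flox;Cre 1 to 4. The groups overlapped, and the log2 fold change was 0.09 (95% interval -0.14 to 0.32, limma adjusted p = 0.562). Slc7a6, which encodes y+LAT2, an exchanger of cationic for neutral amino acids, was the most abundant light chain. It was at 83.7, 71.1, 54.3 and 51.1 TPM in AVP-flox 1 to 4 and at 56.5, 58.2, 42.9 and 48.3 TPM in AVP-flox;Cre 1 to 4, with overlapping groups and a log2 fold change of -0.31 (SE 0.16, limma adjusted p = 0.183). Slc7a6 did pass with the sex pattern of the libraries as a covariate (log2 fold change -0.42, adjusted p = 0.0272). Slc7a7, which encodes y+LAT1, ranged from 3.45 to 5.55 TPM in AVP-flox and from 3.90 to 7.72 TPM in AVP-flox;Cre and did not pass (log2 fold change 0.18, 95% interval -0.27 to 0.64).

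Slc7a5 and Slc7a8 encode LAT1 and LAT2, exchangers of large neutral amino acids such as leucine. Slc7a5 (ENSMUSG00000040010) was at 6.46, 6.53, 5.99 and 12.0 TPM in AVP-flox 1 to 4 and at 4.15, 2.36, 3.78 and 4.21 TPM in AVP-flox;Cre 1 to 4. The groups did not overlap, and AVP-flox 4 stood well above the other AVP-flox libraries. The mean of Slc7a5 was 2.14-fold lower in AVP-flox;Cre, with a log2 fold change of -0.89 (SE 0.23, limma adjusted p = 0.0177) and of -0.68 (adjusted p = 0.0354) without AVP-flox 4. Its first 300 nt of transcript hold 72.7% GC, and the libraries differ in their values of genes with a GC-rich start. With libraries corrected for that trend the log2 fold change of Slc7a5 was -0.77 (adjusted p = 0.0347). The call on Slc7a5 was lost with no filter on low values (adjusted p = 0.050), without AVP-flox 1 and 3 (0.0510), and when 3 libraries, AVP-flox 2 with AVP-flox;Cre 2 and 4, were left out together (0.146).

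Slc7a8 (ENSMUSG00000022180) moved the other way. It was at 5.83, 4.12, 5.38 and 4.49 TPM in AVP-flox 1 to 4 and at 8.10, 10.9, 11.6 and 13.5 TPM in AVP-flox;Cre 1 to 4. All AVP-flox;Cre libraries were above all AVP-flox libraries, and the level was 2.22-fold higher (log2 fold change 1.00, SE 0.17, limma adjusted p = 0.00210). The call held when any 1 library was left out. It was lost without the 3 libraries named for Slc7a5 (log2 fold change 0.78, adjusted p = 0.0722).

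Slc7a15 (ENSMUSG00000020600), described in mouse as an aromatic-preferring light chain of the same family, had the largest rise. It was at 1.33, 1.34, 1.80 and 2.63 TPM in AVP-flox 1 to 4 and at 6.11, 5.57, 13.3 and 9.63 TPM in AVP-flox;Cre 1 to 4. The groups did not overlap, and the AVP-flox;Cre libraries themselves differed from each other by more than the AVP-flox libraries did. The mean rose 4.87-fold, with a log2 fold change of 1.75 (SE 0.27, limma adjusted p = 0.00129), and the call held in all 23 alternatives. With a pseudocount of 5 in place of 1 the log2 fold change of Slc7a15 was 0.98, and that of Slc7a5, also a low gene, was -0.55.

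A light chain sum was taken over Slc7a5, Slc7a6, Slc7a7 and Slc7a8, which pair with Slc3a2. In AVP-flox 1 to 4 it was 101, 86.9, 71.2 and 71.0 TPM. In AVP-flox;Cre 1 to 4 it was 76.5, 75.4, 63.7 and 71.6 TPM. These sums overlap between the groups and do not include Slc7a15. The shares of Slc7a8 and Slc7a5 did not overlap. Slc7a8 held 4.74% to 7.56% of the sum in AVP-flox and 10.6% to 18.9% in AVP-flox;Cre, and Slc7a5 held 6.38% to 16.9% and 3.13% to 5.93%. Slc3a2 was 1.24 to 1.88 times the light chain sum in AVP-flox and 1.58 to 1.99 times in AVP-flox;Cre.

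**Figure D3:**
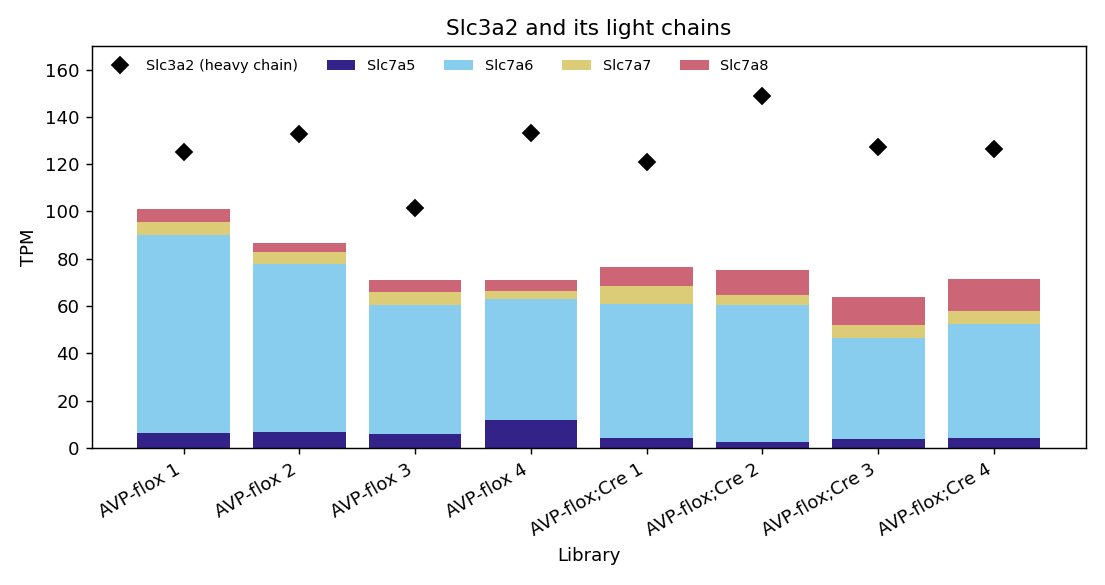
TPM of the light chains Slc7a5, Slc7a6, Slc7a7 and Slc7a8 stacked for each of the 8 libraries, with the heavy chain Slc3a2 as a diamond. Slc3a2 lies above the light chain sum in every library, and the Slc7a8 segment is wider in all AVP-flox;Cre libraries (8.10 to 13.5 TPM) than in AVP-flox (4.12 to 5.83 TPM).

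Of the 3 tested genes of the cationic amino acid branch of Slc7, 2 were higher in AVP-flox;Cre and 1 did not pass. Among all genes tested 13.1% were higher, and 3 genes are too few to set this branch apart. Slc7a1 (ENSMUSG00000041313) encodes CAT1, a carrier of arginine, lysine and ornithine. It was at 34.7, 40, 30.2 and 47.2 TPM in AVP-flox 1 to 4 and at 46.6, 67.5, 57.0 and 45.6 TPM in AVP-flox;Cre 1 to 4. AVP-flox 4 overlapped with AVP-flox;Cre 1 and 4. The log2 fold change of Slc7a1 was 0.50 (SE 0.16, limma adjusted p = 0.0413), and 14 of 23 alternatives ended the call. Among single libraries these were AVP-flox 1 (adjusted p = 0.102), 2 (0.0707) and 3 (0.113) and AVP-flox;Cre 2 (0.0934) and 3 (0.103). Without AVP-flox 1 and 3 the log2 fold change of Slc7a1 was 0.29.

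Slc7a4 (ENSMUSG00000022756), a relative of the cationic carriers by sequence, was at 16.2, 19.1, 16.3 and 18.8 TPM in AVP-flox 1 to 4 and at 23.7, 25.4, 29.0 and 25.4 TPM in AVP-flox;Cre 1 to 4. The groups did not overlap. The level was 1.47-fold higher, with a log2 fold change of 0.53 (SE 0.10, limma adjusted p = 0.00353). Slc7a4 was at the threshold without AVP-flox 1 and 3 (adjusted p = 0.050) and without the 3 libraries named for Slc7a5 (adjusted p = 0.0502). Slc7a2 (CAT2), at 0.69 to 2.12 TPM in AVP-flox and 0.97 to 2.25 TPM in AVP-flox;Cre, did not pass (log2 fold change 0.32, 95% interval -0.29 to 0.92).

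In the Slc38 family 1 member fell, 1 rose and 6 did not pass the test. With 27.3% of all genes tested called in either direction, this count does not set the family apart. Slc38a7 (ENSMUSG00000036534), which encodes SNAT7, an exporter of glutamine and asparagine from lysosomes, was at 21.4, 21.1, 17.9 and 18.2 TPM in AVP-flox 1 to 4 and at 13.04, 14.6, 12.3 and 15.3 TPM in AVP-flox;Cre 1 to 4. All AVP-flox;Cre libraries lay below all AVP-flox libraries. The log2 fold change was -0.48 (SE 0.11, limma adjusted p = 0.00954). The call on Slc38a7 was lost without AVP-flox 1 and 3 (adjusted p = 0.0660) and without the 3 libraries named for Slc7a5 (adjusted p = 0.0507).

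Slc38a4 (ENSMUSG00000022464), a sodium-coupled carrier of neutral amino acids, was at 3.79, 3.21, 4.67 and 3.58 TPM in AVP-flox 1 to 4 and at 5.90, 5.44, 6.50 and 6.78 TPM in AVP-flox;Cre 1 to 4. The groups did not overlap, and the level was 1.61-fold higher (log2 fold change 0.58, SE 0.15, limma adjusted p = 0.0162). Leaving out the 3 libraries named for Slc7a5 ended the call on Slc38a4 (adjusted p = 0.122). In the RefSeq gene order its near neighbour is Slc38a1, with Slc38a2 between them. Slc38a1, at 5.16 to 7.44 TPM in AVP-flox and 2.85 to 6.52 TPM in AVP-flox;Cre, had a log2 fold change of -0.45 (95% interval -0.92 to 0.01, limma adjusted p = 0.137). It passed without AVP-flox;Cre 4 (-0.63, adjusted p = 0.0391).

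Slc38a10 (ENSMUSG00000061306), the most abundant member, was at 145, 132, 150 and 136 TPM in AVP-flox 1 to 4 and at 123, 135, 118 and 135 TPM in AVP-flox;Cre 1 to 4. The groups overlapped (log2 fold change -0.14, 95% interval -0.30 to 0.02, limma adjusted p = 0.189). Slc38a9, a lysosomal protein that senses arginine for the growth kinase complex mTORC1, ranged from 13.3 to 17.9 TPM in AVP-flox and from 13.02 to 21.5 TPM in AVP-flox;Cre (log2 fold change 0.06, 95% interval -0.28 to 0.40). Slc38a3, Slc38a6 and Slc38a11 had log2 fold changes of -0.14, 0.33 and 0.44 and did not pass either.

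**Figure D4:**
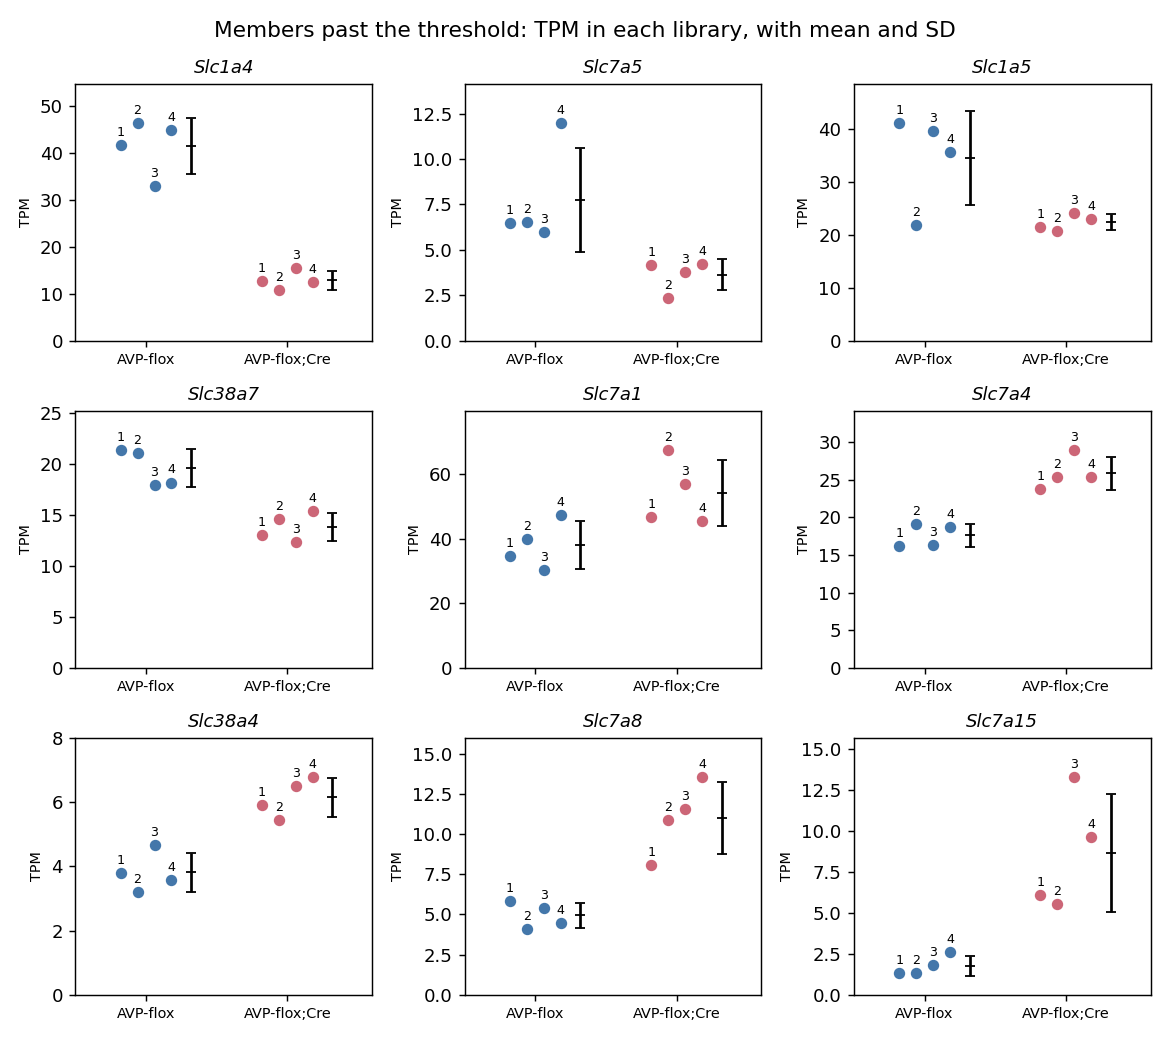
TPM in each library for the 9 members past the threshold, with a linear axis from 0, points numbered by replicate, and a bar for the mean with its SD (n = 4 per group). The groups overlap only for Slc1a5, through AVP-flox 2, and for Slc7a1, through AVP-flox 4.

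Promoters of Slc7a8 and Slc38a7 are shown as those of a member that rose and a member that fell, each with a single entry in the promoter table. Both stretches run from 80 bases before the start to 20 after it on the minus strand of GRCm38.p6, at chr14:54781867-54781966 for Slc7a8 and chr8:95853472-95853571 for Slc38a7. Capitals mark the palindrome CACGTG, an E-box, which was searched after the Slc38a7 promoter had been read.
Slc7a8: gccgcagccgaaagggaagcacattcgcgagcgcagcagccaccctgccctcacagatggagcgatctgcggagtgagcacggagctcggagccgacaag
Slc38a7: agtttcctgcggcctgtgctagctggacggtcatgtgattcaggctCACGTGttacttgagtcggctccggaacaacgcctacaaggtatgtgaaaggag
The stretches hold 66% GC in Slc7a8 and 54% GC in Slc38a7. CACGTG occurs in at least 1 promoter of 8.09% of the 27025 genes of the table and of 3 of the 26 matched members (11.5%), which are Slc38a7, Slc36a1 and Slc43a1. Slc36a1 and Slc43a1 did not pass the test.

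No tested member of Slc6, Slc36 or Slc43 passed the test, against 27.3% of all genes tested. Each of these families holds too few tested genes for a statement on the family. Slc43a2 (LAT4), a facilitator for branched-chain and other neutral amino acids, was at 44.6, 67.3, 67.7 and 65.0 TPM in AVP-flox 1 to 4 and at 63.4, 64.9, 74.6 and 80.1 TPM in AVP-flox;Cre 1 to 4. AVP-flox 1 was the low library, and the log2 fold change was 0.22 (95% interval -0.09 to 0.53, limma adjusted p = 0.278). With the sex pattern as a covariate Slc43a2 passed (0.32, adjusted p = 0.0193), as Slc7a6 did, while the calls on Slc1a5 (adjusted p = 0.0504) and Slc7a1 (0.0634) were lost and 7 of the 9 calls held. Slc43a3 was at 39.1, 30.5, 36.3 and 32.5 TPM in AVP-flox 1 to 4 and at 37.5, 28.6, 39.8 and 44.2 TPM in AVP-flox;Cre 1 to 4, with overlapping groups (log2 fold change 0.10, limma adjusted p = 0.624).

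Slc6a9 (GlyT1), a glycine carrier, ranged from 14.1 to 21.6 TPM in AVP-flox and from 9.51 to 15.7 TPM in AVP-flox;Cre (log2 fold change -0.34, 95% interval -0.74 to 0.06). Slc6a17, known as a vesicular carrier of neurons, had a log2 fold change of -0.39 (95% interval -0.80 to 0.03), and of -0.55 (adjusted p = 0.0347) without AVP-flox;Cre 3. Slc6a15, a carrier of branched-chain amino acids and proline, was at 0.17, and the creatine carrier Slc6a8 at -0.31. Slc36a4 and Slc36a1, the proton-coupled carriers, were at 0.26 and 0.16. Slc7a5, Slc6a17, Slc38a1 and Slc6a8, the tested members with over 70% GC in the first 300 nt, had negative log2 fold changes before and after correction for that trend. All became smaller in size with it. Slc6a17 went from -0.39 to -0.18, Slc38a1 from -0.45 to -0.35 and Slc6a8 from -0.31 to -0.19. Over all 29 members that did not pass, log2 fold changes ran from -0.47 to 0.44, and 22 had a 95% interval within 1 on either side of 0.

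Several members are known from the proximal tubule, and some of them were high in the libraries where markers of that segment were high. Slc3a1 and Slc7a9, the rBAT heavy chain and its partner for cystine and cationic amino acids, are defective in cystinuria. Slc3a1 was at 8.59, 1.63, 12.1 and 2.69 TPM in AVP-flox 1 to 4 and at 1.45, 2.83, 9.34 and 2.38 TPM in AVP-flox;Cre 1 to 4. Slc7a9 was at 2.19, 0.69, 3.16 and 0.54 TPM in AVP-flox 1 to 4 and at 0.60, 0.52, 1.73 and 0.48 TPM in AVP-flox;Cre 1 to 4. Both were high in AVP-flox 1 and 3 and in AVP-flox;Cre 3. Proximal tubule markers other than Aqp1 summed to 974, 133, 669 and 97.0 TPM in AVP-flox 1 to 4 and to 194, 282, 447 and 186 TPM in AVP-flox;Cre 1 to 4, which puts the same libraries on top. Aqp1 is also known from thin limbs and vessels of the medulla and was lowest in AVP-flox 1, at 455 TPM. With Aqp1 the sums were 682 to 1429 TPM in AVP-flox and 802 to 1114 TPM in AVP-flox;Cre, again highest in AVP-flox 1 and 3 and in AVP-flox;Cre 3. Among the 18 proximal tubule markers tested, Aqp1 included, 0 passed. Slc6a18, a brush border carrier, was at 11.0, 3.65, 17.3 and 5.93 TPM in AVP-flox 1 to 4 and at 5.63, 5.96, 15.8 and 6.47 TPM in AVP-flox;Cre 1 to 4, with the same high libraries. Slc6a13 (4.09, 3.61 and 3.93 TPM) and Slc38a3 (1.83, 1.44 and 1.97 TPM) were also highest in AVP-flox 1 and 3 and AVP-flox;Cre 3. Slc7a12 shared this order in part, at 5.37 TPM in AVP-flox 3 and 3.45 TPM in AVP-flox;Cre 3 but 0.12 TPM in AVP-flox 1. Slc7a13 and Slc6a19 (B0AT1), the main neutral amino acid carrier of the brush border, did not share it. Slc6a19 was at 6.25, 14.2, 8.45 and 5.70 TPM in AVP-flox 1 to 4 and at 6.42, 5.16, 5.58 and 6.81 TPM in AVP-flox;Cre 1 to 4, highest in AVP-flox 2, where the markers were low. None of these members passed the test, and the interval of Slc3a1, from -1.74 to 0.79, leaves room for changes of over 1 on the log2 scale.

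**Figure D5:**
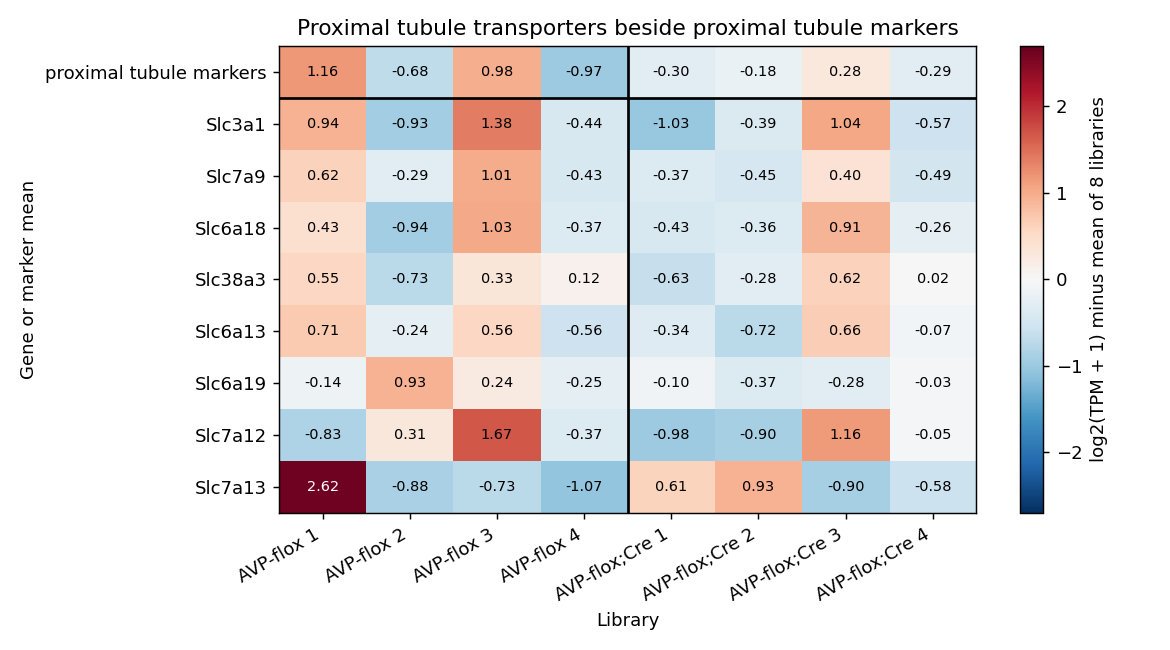
Log2(TPM + 1) in each library minus the mean of 8 libraries, for 8 members known from the proximal tubule, below the mean of 18 tested proximal tubule markers in the top line. AVP-flox 1 (1.16) and 3 (0.98) are highest for the markers. Slc3a1, Slc7a9, Slc6a18, Slc38a3 and Slc6a13 are high in AVP-flox 1 and 3 and in AVP-flox;Cre 3, and Slc6a19 is highest in AVP-flox 2 (0.93).

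Genes that work with these carriers were read from lists beside the members. Among 17 tested genes for other amino acid carriers and partner proteins, 3 were higher, 1 was lower and 13 did not pass, with a median log2 fold change of -0.01. The shares of all genes tested, 13.1% higher and 14.2% lower, are the background for this and the next lists. Cltrn, which encodes collectrin, a partner that brings Slc6a19 to the surface of proximal tubule cells and was first found in collecting duct, rose most. It was at 47.4, 42.5, 52.9 and 48.4 TPM in AVP-flox 1 to 4 and at 156, 184, 161 and 140 TPM in AVP-flox;Cre 1 to 4. The groups were far apart, with a log2 fold change of 1.72 (SE 0.10, limma adjusted p = 7.61e-06). Sfxn3, a mitochondrial serine carrier, and Slc25a29, a mitochondrial carrier of basic amino acids, were higher by 0.50 and 0.44, and Slc25a12, the aspartate and glutamate carrier of mitochondria, was lower (-0.42). The count of 3 higher genes became 1 without the 3 libraries named for Slc7a5, and the count of 1 lower gene became 2 without AVP-flox;Cre 4 and 0 without AVP-flox 1 and 3.

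In the list of amino acid sensing to mTORC1, 2 of 34 tested genes were higher, 8 were lower and 24 did not pass (median -0.16, against -0.01 over all genes). Rraga, a Rag GTPase that brings mTORC1 to the lysosome, was at 138, 135, 127 and 121 TPM in AVP-flox 1 to 4 and at 79.1, 74.7, 87.3 and 87.8 TPM in AVP-flox;Cre 1 to 4, with a log2 fold change of -0.66 (limma adjusted p = 0.000284). Nprl2 and Wdr24, of the complexes that restrain and release the Rag GTPases, were at -0.72 and -0.37, and Tsc2, an inhibitor of the pathway, at -0.46. The 2 higher genes were Lamtor3 (0.25, adjusted p = 0.00917) and Lamtor5 (0.21, adjusted p = 0.0480), subunits of the Ragulator complex that anchors the Rag GTPases, named here after their values were seen. The count of 8 lower genes became 5 without AVP-flox;Cre 1 or AVP-flox;Cre 3, 4 without AVP-flox 1 and 3, and 2 without the 3 libraries named for Slc7a5. The count of 2 higher genes became 1 without any 1 of the other libraries except AVP-flox;Cre 4.

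Of 32 tested amino acid enzymes, 1 was higher, 11 were lower and 20 did not pass (median -0.22). Odc1, which makes putrescine from ornithine, was at 254, 248, 209 and 169 TPM in AVP-flox 1 to 4 and at 104, 78.0, 82.5 and 76.1 TPM in AVP-flox;Cre 1 to 4 (log2 fold change -1.35, limma adjusted p = 0.000179). Aldh18a1, of proline and ornithine synthesis, and Gclm, of glutathione synthesis, had log2 fold changes of -0.94 and -1.26, and Arg2, a mitochondrial arginase, was higher by 0.57. The count of 11 lower enzymes became 6 without AVP-flox 4, 7 without AVP-flox 3 or AVP-flox;Cre 3, 4 without AVP-flox 1 and 3, and 9 without the 3 libraries named for Slc7a5. The count of 1 higher enzyme became 2 without AVP-flox 3 and 3 without AVP-flox;Cre 3.

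The other 19 members had a mean under 1 TPM and entered no test. They include Slc7a10, Slc38a5, Slc6a14, Slc1a6 and the neuronal carriers Slc6a5 and Slc6a3, and 10 of them were listed at 0 in AVP-flox;Cre 2, a library with 33576 genes above 0 TPM against 50951 to 58232 in the others. Slc36a2, a proton-coupled carrier of glycine and proline, was the only one of the 19 whose groups did not overlap, at 0.36, 0.28, 0.53 and 0.62 TPM in AVP-flox 1 to 4 and at 1.36, 1.47, 1.52 and 1.55 TPM in AVP-flox;Cre 1 to 4. Without a filter on low values, over 67580 genes, it passed (log2 fold change 0.78, adjusted p = 0.0299).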

How the data were processed

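The authors deposited TPM values per Ensembl mouse gene for 8 libraries, and each column sums to the same total within rounding. Per the submitters' processing notes, STAR and RSEM were used; no version is stated. Build and annotation: not given in the sources used here. TPM keeps no read number, so depth is unknown and no counting interval is given. Columns named WT and KO were read as AVP-flox and AVP-flox;Cre by replicate number. Values of 78298 identifiers were summed by symbol to 77981 genes. Those averaging 1 TPM or more were tested with limma 3.58.1 in R 4.3.3 on log2(TPM + 1) with a mean-variance trend, two-sided. Fold changes understate changes of low genes. The test was checked on simulated data. GC content came from the longest GENCODE M21 transcript, for 87.4% of tested genes, and promoters from RefSeq. The members, lists and alternatives were chosen with earlier results of these data known. The text gives members of at least 20 TPM or past the threshold by library, and up to 4 changed genes of each of 3 pathway lists. Roles were assigned from general knowledge.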

Additional observations from a re-analysis of the deposited data

Results flagged for a closer look

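In 6 of 76 groups of 4 libraries, 1 library lay far from the other libraries of its group by Dixon's test. Chance alone flags about 1 in 20 groups. Slc7a5 was high in AVP-flox 4 at 12.0 TPM, with the next library at 6.53 TPM. Slc43a2 was low in AVP-flox 1 at 44.55 TPM, with the next at 65.02 TPM. Slc36a4 was high in AVP-flox 2 at 13.41 TPM, with the next at 12.58 TPM, a gap of little size. Slc7a13 was high in AVP-flox 1 at 13.21 TPM, with the next at 0.40 TPM. Slc6a18 and Slc7a9, both known from the proximal tubule, were high in AVP-flox;Cre 3, at 15.83 and 1.73 TPM, with the next libraries at 6.47 and 0.60 TPM. The proximal tubule markers other than Aqp1 were also highest of the AVP-flox;Cre libraries there, at 447 TPM against 186 to 282 TPM, and their part in these values was not tested.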

How the results depend on the processing

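Over 23 alternatives (22 for Slc38a4, which a filter at 5 TPM removes), no member changed sign where it was called, and Slc1a4 and Slc7a15 passed under each alternative. All genes called numbered 5204, with 3409 under no filter, 2538 with AVP-flox 1 and 3 left out, and 2224 with AVP-flox 2 left out together with AVP-flox;Cre 2 and 4. Members called higher numbered 5, with 3 and 1 under those last settings, and members called lower numbered 4, with 2 under no filter, 1 without AVP-flox 1 and 3, and 2 without the other libraries named. Both settings test fewer samples. Leaving out 1 library at a time gave 3960 to 4769 genes, 4 to 5 members higher and 3 to 4 lower. The labels do not say whether same-numbered libraries are paired. The correlations of their deviations over all genes ran from 0.001 to 0.095, which cannot exclude a pairing that acts on some genes. With the replicate number as a block the SE fell for Slc7a6 (0.16 to 0.10) and rose for Slc1a4 (0.14 to 0.16). With the replicate block 4431 genes, 4 members higher and 4 lower passed, and Slc7a1 was the call it ended. Median-of-ratios scaling shifted the median log2 fold change of all genes by 0.014. Rescaling without mitochondrial genes and the 10 most abundant genes shifted it by -0.023. With the mean level of the proximal tubule markers as a covariate 8 of the 9 calls held. Slc7a1 was the call lost there (limma adjusted p = 0.0510). With no filter the lower sensing genes numbered 4 and the lower enzymes 5. Among members that did not pass, 11 had a log2 fold change of either sign across alternatives, Slc3a2 among them (-0.03 to 0.13). The unknown depth limits statements on members near 1 TPM.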

Other observations

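Slc7a12 and Slc7a13, light chains of the Slc7 family known in mouse kidney for opposite differences between the sexes, differed with the sex pattern of the libraries. Xist and Y-linked transcripts showed the male pattern in AVP-flox;Cre 1 and 2 as well as AVP-flox 1, and the female pattern in the other 5 libraries. Slc7a13 was at 2.53 to 13.21 TPM in those 3 libraries and at 0.10 to 0.55 TPM in the other 5. Slc7a12 was at 0.12, 0.01 and 0.07 TPM in the 3 libraries of the male pattern and at 1.47, 5.37, 0.55, 3.45 and 0.93 TPM in the other 5. The levels of the 2 genes did not overlap between the patterns, in opposite directions. This was noticed in the data and is given without a test. Their log2 fold changes between genotypes were 0.03 (95% interval -1.74 to 1.80) for Slc7a13 and -0.39 (-1.75 to 0.97) for Slc7a12, among the widest intervals of all members.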
